A study of Mus musculus with 2 samples.

Results

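Wide distal peaks of trimethylated lysine 4 of histone H3 (H3K4me3) in mouse embryonic stem cells are described here. A peak was a member when it spanned 2000 bp or more and lay over 5 kb from the 5′ end of every gene, of any type, in the RefSeq gene table of GRCm38.p6 (mm10). Of the 62115 peaks that the authors listed as replicated on chromosomes 1 to 19, X and Y, 1809 met both conditions, which is 2.91%. Distal peaks of any width numbered 31963, and 5.66% of these were wide. The other 30154 are called narrow distal peaks below. The members were thus chosen by width and distance, so both are given as description only. The working name for these peaks was candidate unannotated promoters, and that name was checked against the transcript starts that RefSeq lists.

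The peaks came from chromatin immunoprecipitation followed by sequencing (ChIP-seq) with an H3K4me3 antibody in E14TG2a.4, a male embryonic stem cell line of strain 129/Ola. The samples formed 1 group of 2 biological replicates from the same line and donor, with no treatment or altered genotype named in the labels. No contrast between conditions exists, so no p-value is given, and each comparison below is between classes of peaks in this 1 group. The authors' signal value of a peak is a ratio of ChIP over control, and the read depth behind it is unknown.

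H3K4me3 is laid down by the SET1 and MLL complexes and is known as the mark of active and poised promoters, where it surrounds the first nucleosomes of a transcribed or transcribable gene. Promoters rich in the dinucleotide CpG carry it most broadly, because proteins with a CXXC domain bring the methyltransferases to unmethylated CpG. Active enhancers usually carry mainly the monomethylated form, and weak H3K4me3 also occurs at some of them. Many mammalian genes have more than 1 promoter, so a peak inside a gene can lie at the start of a shorter transcript.

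The sequences below are the 250 bases upstream of listed RefSeq transcript starts on GRCm38.p6, each read 5′ to 3′ on the strand of its gene, with every CG in capitals. The first 4 belong to the strongest members that lie over a listed start. The next 3 belong to genes of the stem cell state that held a member over a listed start. The last is another listed start of Lifr, under no peak, and is shown for contrast. Clta lies at chr4:44012420-44012669 (+), Ccdc174 at chr6:91877803-91878052 (+), Nrbp1 at chr5:31240633-31240882 (+) and Mthfd2 at chr6:83317605-83317854 (-). Lifr lies at chr15:7129322-7129571 (+), Nr5a2 at chr1:136953631-136953880 (-), Esrrb at chr12:86421394-86421643 (+), and the Lifr start without a peak at chr15:7140292-7140541 (+).
Clta: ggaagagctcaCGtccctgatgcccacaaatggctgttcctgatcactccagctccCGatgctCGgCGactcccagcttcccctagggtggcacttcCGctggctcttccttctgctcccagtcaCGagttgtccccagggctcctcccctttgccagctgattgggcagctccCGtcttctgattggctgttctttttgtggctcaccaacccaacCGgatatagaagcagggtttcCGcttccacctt
Ccdc174: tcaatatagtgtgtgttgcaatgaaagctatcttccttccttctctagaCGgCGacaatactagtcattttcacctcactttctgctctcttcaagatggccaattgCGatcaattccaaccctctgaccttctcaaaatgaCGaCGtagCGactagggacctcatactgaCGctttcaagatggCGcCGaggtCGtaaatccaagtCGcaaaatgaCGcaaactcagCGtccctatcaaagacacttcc
Nrbp1: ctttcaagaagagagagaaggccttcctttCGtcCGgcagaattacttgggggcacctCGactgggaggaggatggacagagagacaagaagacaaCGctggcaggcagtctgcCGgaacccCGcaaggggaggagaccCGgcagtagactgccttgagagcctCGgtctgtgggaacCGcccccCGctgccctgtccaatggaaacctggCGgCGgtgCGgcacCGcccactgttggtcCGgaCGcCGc
Mthfd2: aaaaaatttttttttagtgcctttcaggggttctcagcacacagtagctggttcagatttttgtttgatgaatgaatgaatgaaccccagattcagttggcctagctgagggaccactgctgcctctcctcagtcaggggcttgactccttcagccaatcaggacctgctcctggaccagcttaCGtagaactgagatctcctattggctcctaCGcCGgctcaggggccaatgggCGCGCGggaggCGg
Lifr: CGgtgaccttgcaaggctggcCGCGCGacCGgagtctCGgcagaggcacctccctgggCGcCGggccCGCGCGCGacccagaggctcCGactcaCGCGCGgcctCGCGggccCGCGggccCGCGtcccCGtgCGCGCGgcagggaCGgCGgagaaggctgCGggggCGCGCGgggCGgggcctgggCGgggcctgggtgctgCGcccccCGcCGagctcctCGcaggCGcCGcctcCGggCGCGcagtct
Nr5a2: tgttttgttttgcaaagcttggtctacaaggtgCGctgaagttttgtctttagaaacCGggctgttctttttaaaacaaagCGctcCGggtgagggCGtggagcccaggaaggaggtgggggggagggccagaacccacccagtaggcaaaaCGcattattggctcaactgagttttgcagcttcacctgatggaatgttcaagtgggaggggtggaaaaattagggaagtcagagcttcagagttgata
Esrrb: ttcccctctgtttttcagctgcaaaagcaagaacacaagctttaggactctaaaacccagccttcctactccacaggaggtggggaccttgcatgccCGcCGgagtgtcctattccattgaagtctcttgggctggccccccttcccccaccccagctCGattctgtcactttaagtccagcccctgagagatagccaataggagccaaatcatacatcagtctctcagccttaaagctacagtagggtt
Lifr, start without a peak: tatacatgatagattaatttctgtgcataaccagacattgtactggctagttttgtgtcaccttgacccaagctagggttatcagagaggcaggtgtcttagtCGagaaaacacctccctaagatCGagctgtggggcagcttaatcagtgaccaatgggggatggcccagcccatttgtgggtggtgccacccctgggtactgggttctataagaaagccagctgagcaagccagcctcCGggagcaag

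The printed sequences differ widely in base composition. The Lifr stretch under a member held 43 CG dinucleotides at a GC content of 82.4%, whereas the stretch upstream of the Lifr start without a peak held 3 at 50.8%. Ccdc174 held 13 CG at a GC content of only 46%, and Mthfd2 held 7, several of them within the last bases before the start. The Esrrb stretch held 3 CG at 52%, and the Nr5a2 stretch 6 at 49.6%, so a CpG-poor start can also lie under a wide distal peak. The summit of the peak was 129 to 344 bp from the start in 6 of these genes and 1242 bp away in Nr5a2.

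The data went against the name in part. A listed transcript start lay inside 265 of the 1809 members, which is 14.6% (Wilson 95% interval 13.1 to 16.4%), beside 1.63% of the narrow distal peaks and 2.37% of all distal peaks. These members therefore hold annotated starts that lie over 5 kb from the 5′ end of their gene. A listed start lay within 500 bp of the summit in 209 members. Whether each peak belongs to the start inside it was not tested. The intervals cover only the number of peaks, which are not independent replicates. The other 1544 members held no listed start. Of these, 1141 lay inside a gene and 403 lay between genes. This count depends on the start table, which held a start for 17492 of 21887 protein-coding genes and none on chromosome 18, where 57 members lie. Of the 1081 members without a listed start inside a protein-coding gene, 275 lay in genes with no entry in that table at all, which is 25.4%.

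In most of these genes the start under the member lay downstream of another listed start. The 265 members covered 319 starts of 262 genes, of which 256 were protein-coding and 6 were long noncoding. In 93 genes (35.5%, 29.9 to 41.5%) the member covered every start listed for the gene. In another 14 genes it covered the 5′-most listed start, and in 155 (59.2%) a start downstream of another listed one. For starts under narrow distal peaks the share of genes with every start covered was 32.4% (28.3 to 36.8%), and for distal starts under no peak it was 30.5% (28.1 to 33.1%), so the members' share was near both. The starts under members lay a median of 21.2 kb from the 5′ end of their gene, with quartiles of 10.3 and 51.4 kb. That 5′ end itself had a peak within 1 kb in 194 of the 262 genes (74.0%, 68.4 to 79.0%), beside 75.1% of 15365 protein-coding genes over 7 kb long. In 68 genes it had none. Where the member covered every listed start, the 5′ end had a peak in 65 of 93 genes.

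The strongest members often lay over a listed start. Of the 15 with the highest signal, between 69.7 and 77.2, 11 lay over a listed start, 3 inside a gene without one and 1 between genes. Slf2, which encodes a localisation factor of the SMC5/6 DNA repair complex, held the strongest member at chr19:44930227-44932517 with a signal of 77.2, and with 66.8 in replicate 1 and 68.7 in replicate 2. It lay 11.7 kb from the 5′ end of Slf2, a gene with 0 entries in the start table. Clta, the clathrin light chain A gene, followed at 75.8, with 63.4 and 70.0 in the replicates. Clta also had a peak at its 5′ end, with 14.7.

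Ccdc174 had a signal of 75.1 at its only listed start, 34.9 kb from the 5′ end in the gene table, with 64.4 and 68.1 in the replicates. Nrbp1, a pseudokinase gene, had 74.3 at its only listed start, with 63.4 and 68.7 in the replicates. No peak lay at the 5′ end that the gene table gives for Nrbp1, 12.8 kb away. Mthfd2, an enzyme of mitochondrial folate metabolism, had 73.8 at its only listed start, with 63.6 and 66.1 in the replicates. Both replicates thus gave high values at all 5 of these members, and the pooled value stood above both in each. Stk25, Brd3, Gphn and Cops3 likewise had their only listed start under the member, and Ddx50 had both of its listed starts there. Stk25, a kinase gene, and Gphn, which encodes the synaptic scaffold gephyrin, had no peak at the 5′ end of the gene table. Clta, Ccdc174, Mthfd2, Brd3, Cops3, Ddx50, Gatad2a and Pde4dip, the other 8 of the 11, had a peak there as well. In Gatad2a, a subunit gene of the NuRD complex, and in Pde4dip the start under the member was the downstream one of 2.

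Strong members without a listed start were fewer. At or above 49.5, the median signal of the 7653 wide peaks within 1 kb of a gene 5′ end, were 74 of the 265 members over a listed start (27.9%), 40 of the 1544 without one (2.59%) and 55 of the 30154 narrow distal peaks (0.182%). Of the 40, 34 lay inside a gene and 6 between genes. In 17 of the 31 that lay inside a protein-coding gene, the gene had no entry in the start table, which is 54.8%. The strongest were Slf2, a member between genes at chr8:83874012-83877217 with 73.3, Slc2a3 with 70.8 and Zbtb46 with 70.5. Slc2a3 encodes a glucose transporter of the early embryo and neurons. Its member at chr6:122738757-122745549 had 62.6 in replicate 1 and 48.4 in replicate 2, and Slc2a3 has 0 entries in the start table. Zbtb46, a transcription factor gene known from dendritic cells, has 1 listed start, which lay outside its member at chr2:181457836-181460993.

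The 6 strong members between genes can be placed by their neighbours. The member on chromosome 8 lay 9.86 kb from the nearest 5′ end, that of Gm26721, and had 65.3 in replicate 1 and 65.8 in replicate 2. The next lay at chr2:169004745-169009875 with 61.3, and at chr5:33530829-33538220 with 58.5, 91.4 kb from any gene 5′ end. The 3 others lay at chr9:78519613-78523816 with 57.8, at chr9:111521578-111524088 with 53.6 and at chr6:122809525-122812712 with 52.5. The last of these lay 7.16 kb from the 5′ end of Slc2a3. All 6 had at least 46.1 in both replicates.

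**Figure D1:**
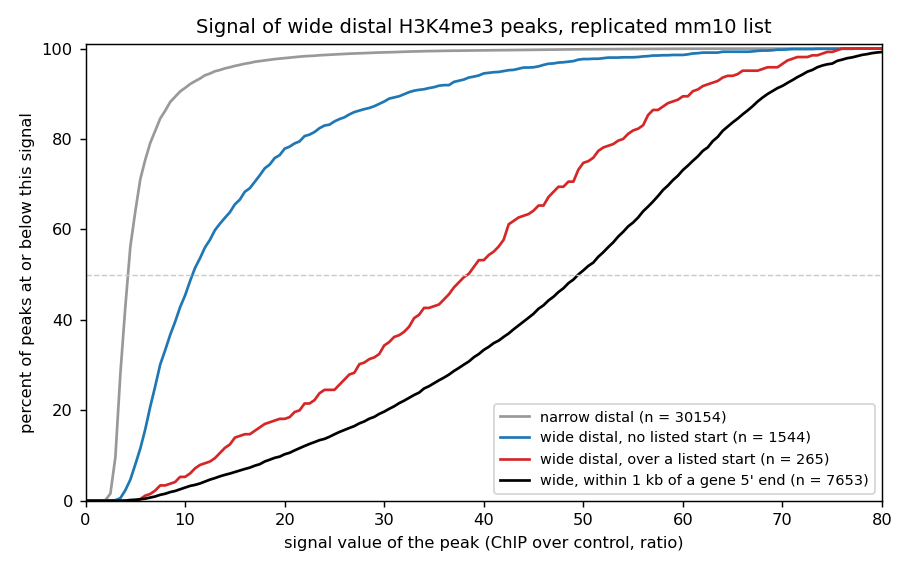
Cumulative share of peaks (percent, vertical axis) at or below each signal value (ratio of ChIP over control, horizontal axis) in the replicated list. The curve of members over a listed start lies near that of wide peaks at gene 5′ ends, with medians of 38.4 and 49.5, and the curve of members without one lies nearer to the narrow distal peaks, with medians of 10.8 and 4.25.

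Signal separated the members with and without a listed start. Members over a listed start had a median signal of 38.4 (quartiles 25.31 and 50.04), and members without one 10.8 (6.91 and 18.7). All 1809 together had a median of 12.4 and ranged from 2.13 to 77.2. The 1141 inside a gene without a listed start had a median of 10.4 and the 403 between genes 11.9, so position inside or between genes made little difference. The quartiles of the members over a start and without one did not overlap. When the members were ranked by signal and cut into 10 classes, a listed start was present in 58.6% of the highest class, with signals of 42.3 and over, in 39.8% of the next, in 19.9% of the third and in 0.556% of the lowest.

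At matched signal, wide and narrow distal peaks had listed starts at similar shares. For this comparison a start counted when it lay within 500 bp of the summit, a window of the same length for every peak. Over all signals the share was 11.6% (10.2 to 13.1%) of the members and 1.73% (1.59 to 1.88%) of the narrow distal peaks. At signals of 10 to 20 it was 4.67% of 535 members and 5.02% of 1991 narrow peaks. At 20 to 30 it was 15.2% of 204 and 17.4% of 379, and at 30 to 40 it was 27.4% of 146 and 28.7% of 136. At 40 to 50 it was 42.5% of 106 members (33.5 to 52.0%) and 45.8% of 72 narrow peaks (34.8 to 57.3%). At 50 and over it was 56.3% of 103 members (46.7 to 65.5%) and 70.6% of 51 narrow peaks (57.0 to 81.3%). The intervals of both kinds of peak overlapped in every class, and in no class from 10 upwards was the share higher in the wide peaks.

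**Figure D2:**
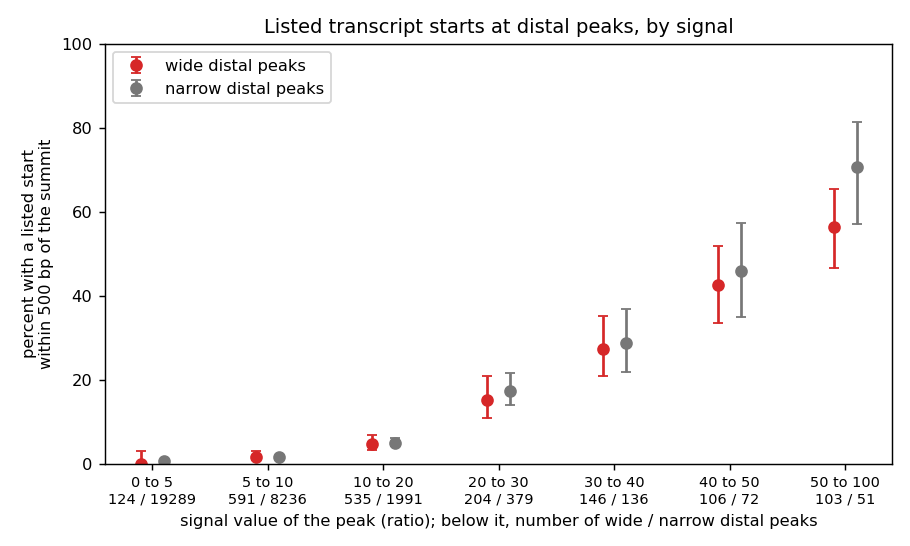
Share of distal peaks with a listed transcript start within 500 bp of the summit (percent, vertical axis) by class of signal (ratio, horizontal axis), with the number of wide and narrow peaks under each class. Points are shares and bars are Wilson 95% intervals. Both kinds of peak climb together, from at most 1.69% below a signal of 10 to 56.3% and 70.6% at 50 and over.

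Seen from the starts, most distal transcript starts had no peak. RefSeq listed 2591 starts over 5 kb from every gene 5′ end. Of these, 319 lay under a member (12.3%), 551 under a narrow distal peak (21.3%), 100 under another peak and 1621 under none (62.6%). The sequence of these starts was not used to choose the peaks. In the 300 bases around the start the median GC content was 64.3% under members, 61.5% under the 100 other peaks, 56.7% under narrow distal peaks and 46.3% under no peak. The ratio of observed to expected CpG had medians of 0.72, 0.64, 0.47 and 0.20 in the same order. Windows with a GC content over 55% and a ratio over 0.75, called CpG-rich here, made up 44.2% of the starts under members (38.9 to 49.7%), 37% under the other peaks (28.2 to 46.8%), 14.5% under narrow distal peaks (11.8 to 17.7%) and 0.309% under no peak. The intervals of members and of the 100 other peaks overlapped. These groups were not matched for signal, and the part of signal in their composition was not tested. Among the 19833 listed starts exactly at a gene 5′ end the share was 17.3%, and among all 32851 listed starts it was 22.1%. Both of these groups were taken with or without a peak, so they give no comparison with marked promoters.

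Composition also varied among the members. When the 319 starts were ranked by the signal of their peak and cut into 3 classes, the median ratio was 0.52 at signals of 5.12 to 31.6, 0.72 at 31.6 to 46.6 and 0.85 above. The median number of CG in the 300 bases was 11, 21 and 27. GC content and sequencing coverage can move together in ChIP-seq, and the part of that in these values was not tested.

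**Figure D3:**
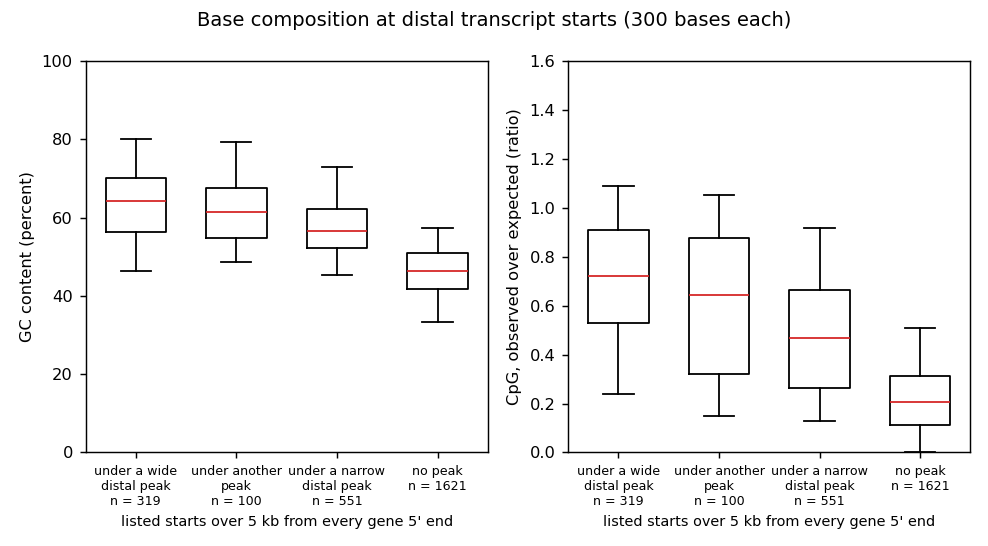
GC content (percent, left) and ratio of observed to expected CpG (right) in the 300 bases around listed starts over 5 kb from every gene 5′ end, by the kind of peak above them. Boxes span the quartiles with the median in red, and whiskers reach from the 5th to the 95th percentile. Starts under wide distal peaks are highest in both panels, with medians of 64.3% and 0.72, and starts under no peak lowest, with 46.3% and 0.20.

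Short motifs were counted in the same 300 bases on both strands. GGGCGG, the core of the GC box that SP1 and related factors bind, occurred at 68.0% of the starts under members (62.7 to 72.9%), 47.2% under narrow distal peaks and 35.7% of all listed starts. CCGGAAG, an ETS family motif, occurred at 10.7% (7.73 to 14.5%), 5.63% and 8.86%. The TATA box letters TATAAA occurred at 4.08% (2.40 to 6.85%), 6.35% and 13.6%. CCAAT differed less, at 31.7%, 37.0% and 37.4%. All listed starts include those under no peak. At the 100 distal starts under another peak, GGGCGG occurred at 57% (47.2 to 66.3%), CCGGAAG at 10%, TATAAA at 6% and CCAAT at 24%. The intervals of members and of these starts overlapped for each of these motifs. GGGCGG is itself rich in G and C, TATAAA holds neither, and the shares follow base composition in that respect. A match is only a match of letters and does not show that a factor bound.

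The widest member lay in Esrrb, the orphan nuclear receptor gene that helps keep stem cells in the naive state. It spanned 25468 bp at chr12:86467279-86492746 and had a signal of 69.4, with 59.2 in replicate 1 and 63.2 in replicate 2. In the replicates' own lists this stretch was split into 6 and 5 peaks, the widest of 14029 and 17840 bp. Esrrb held 5 further members, so that its 6 members covered 45527 bp. Among them was a member of 2048 bp with a signal of 18.8 over a listed start, the start whose sequence is printed above, 60.5 kb from the 5′ end. No peak lay within 1 kb of the 5′ end of Esrrb itself. The other 4 members had signals of 4.74, 5.63, 7.06 and 18.7, all below the 69.4 of the widest.

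After Esrrb, the 10 widest ran down to 9487 bp, and 2 of the 10 lay over a listed start, beside 14.65% of all members. The 2 were Rara, the retinoic acid receptor alpha gene, with 10575 bp and a signal of 46.6, and Cbx7, a Polycomb gene, with 9487 bp and 41.6. Arhgap26 held 11804 bp at a signal of only 14.5, with 16.9 and 14.7 in the replicates. Bicral held 11084 bp, Etv5 10485 bp, Lncenc1 10216 bp, Ahdc1 10002 bp, Mras 9731 bp and Myo10 9680 bp. Arhgap26 and Bicral have 0 entries in the start table. Lncenc1 is a long noncoding RNA gene expressed in naive stem cells, and its member had 56.3. Among the 49 members of 6000 bp and over the median signal was 32.9, beside 10.2 among the 847 of 2000 to 2500 bp. A listed start was present in 26.5% of the first and 13.3% of the second class. Wider peaks reach a given point more often, and the part of that in these shares was not tested.

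**Figure D4:**
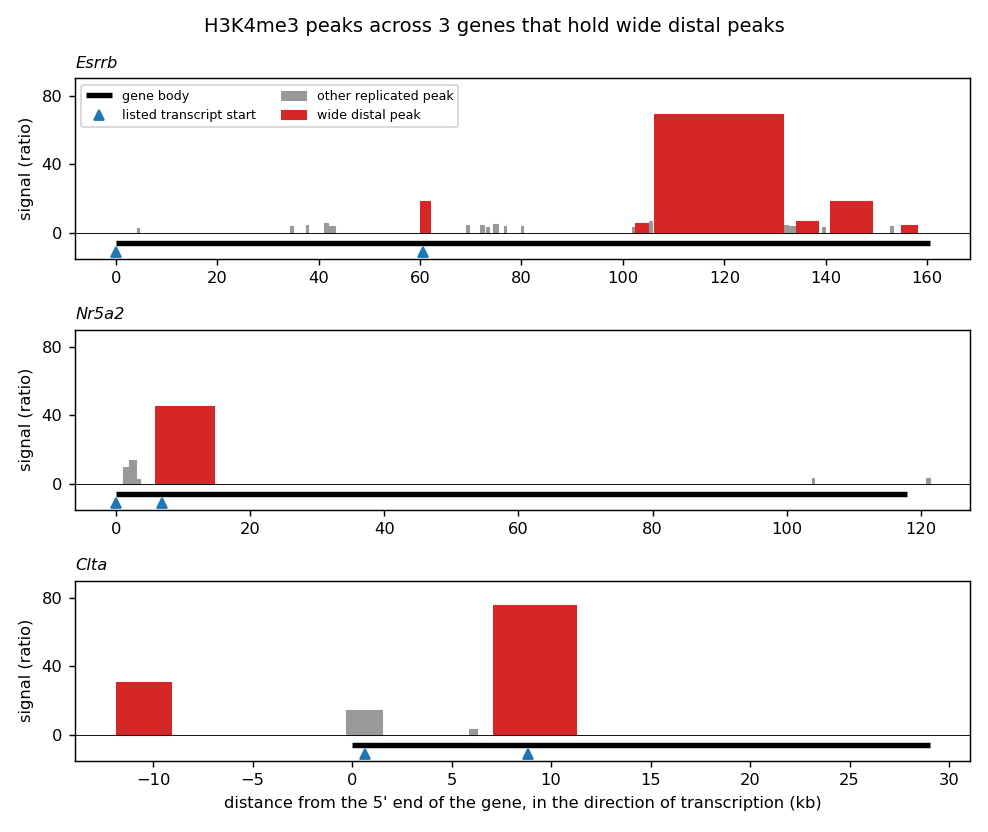
Replicated peaks across Esrrb, Nr5a2 and Clta, with position relative to the gene 5′ end in the direction of transcription (kb, horizontal axis) and the signal of each peak as the height of its block (ratio, vertical axis). Red blocks are wide distal peaks, grey blocks other peaks, black bars gene bodies and blue triangles listed starts. The block of 25468 bp in Esrrb covers no triangle, whereas the tallest red block in Nr5a2 and in Clta each covers 1.

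Genes of the core and naive pluripotency network held members often. The lists below were chosen with earlier results of these data known, so their shares are description. Of the 21 listed genes over 7 kb long, 11 held a member (52.4%, 32.4 to 71.7%), beside 6.53% of all 15553 protein-coding genes over 7 kb. A gene up to 7 kb can hardly hold a peak that lies over 5 kb from its 5′ end. Longer genes held members more often, from 2.65% of genes of 7 to 20 kb to 13.2% of genes over 100 kb. Lifr, the receptor subunit for leukaemia inhibitory factor, had the highest signal after Esrrb, with 56.7 at its 5′-most listed start and 49.9 and 48.4 in the replicates. No peak lay at the 5′ end of the gene table for Lifr, 39.0 kb away. Nr5a2, a nuclear receptor gene, had 45.1 over its downstream start in a peak of 8815 bp, with 33.4 and 40.9 in the replicates. Its nearest peak to the 5′ end began 1.14 kb inside the gene.

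The remaining 8 genes of this list held members without a listed start, all with signals below the 45.1 of Nr5a2. Tbx3, a T-box factor gene, held a member with 30.2, and Zfp42, which encodes the stem cell marker REX1, one with 18.1. Trim71, an RNA-binding protein gene, held 4 members between 7.71 and 16.6. Lin28a, an RNA-binding protein gene that blocks let-7 maturation, had 14.7. Tfcp2l1 held 3 members of at most 8.63, Sall4 had 6.47, and Jarid2, a Polycomb cofactor gene, had 6.06. Fbxo15 had 2.87, the lowest of the 1141 members inside a gene without a listed start, with 4.89 and 3.00 in the replicates. Tbx3, Sall4 and Fbxo15 have 0 entries in the start table, so their members could not lie over a listed start of their own. In Zfp42, Sall4 and 3 of the 4 members of Trim71, peaks less than 1 kb apart formed a chain back to a gene 5′ end. Such chains were found for 108 members in all (5.97%), beside 1.75% of narrow distal peaks. For these members a separate peak and an extension of the peak at the 5′ end cannot be told apart.

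Other lists showed smaller or similar shares. Of 22 genes of DNA methylation and Polycomb repression 9 held a member (40.9%, 23.3 to 61.3%). Dnmt1, the maintenance methyltransferase, had 55.2 in a member over 2 of its 3 listed starts, with 51.6 and 46.6 in the replicates, and no peak at its 5′ end. Kdm2b, a CXXC protein gene, had 40.5 and Dnmt3l, a cofactor of de novo methylation, 32.9, each over a listed start. Tet2, which oxidises methylcytosine, had 23.1 with no listed start, and its replicate values of 14.7 and 26.7 differed more than most. Of 11 genes of the formative and primed epiblast 4 held a member, and Etv5, an ETS factor gene, had the strongest with 36.9. Of 23 genes of the H3K4 methylation machinery 5 did (21.7%), with Dpy30 at 61.0 over listed starts and Ash2l at 45.3 without one, both core subunits of the SET1 and MLL complexes.

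Of 29 signalling genes 5 held a member (17.2%), including Lif, the factor that maintains these cells, with 27.8, and Notch1 with 21.6. Of 33 developmental transcription factors 7 did (21.2%). Runx1, a regulator of blood formation, had 41.4 and Foxp1 38.4, both over a start downstream of another listed one. Foxp1 also had a peak at its 5′ end, and Runx1 had none there. Of 23 neuron and glia genes 4 did (17.4%), among them Cntnap2 and Grin1 with 36.7 each. Of 17 housekeeping genes 1 did (5.88%, 1.05 to 27.0%). None did of 17 fibroblast genes (0%, up to 18.4%), 17 liver genes (0%, up to 18.4%) or 12 blood genes (0%, up to 24.25%). The 6.53% of all protein-coding genes over 7 kb lay inside the intervals of the housekeeping, fibroblast, liver and blood lists. These lists thus gave no share that differed from that of all genes. The lists hold few genes, and their lengths were not matched to those of all genes.

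Members gathered in some genes. They lay in 1017 protein-coding genes, of which 797 held 1, 147 held 2 and 73 held 3 or more. These 73, with a median length of 114.8 kb, held 258 members. Pmepa1, a negative regulator of TGF-beta signalling, held 7 members with signals from 5.61 to 12.9. Its own 5′ end carried a peak of 6210 bp at 37.7. Ahdc1, Arhgap26, Esrrb, Etl4, Pitpnc1 and Prrc2b held 6 each. Ahdc1 reached 52.2 and Pitpnc1 only 11.0, so a gene with many members did not always hold a strong one. The 5′ end had no peak in 9 of the 71 crowded genes with a known strand, Esrrb, Dnmt1 and Dlc1 among them.

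Most genes with a member, crowded ones included, also had a peak at their 5′ end. Of 753 genes over 7 kb with a known strand that held only members without a listed start, 89.1% (86.7 to 91.1%) had a peak within 1 kb of their 5′ end, with a median signal of 44.3. In genes that held a member over a listed start this share was 73.8% (68.2 to 78.8%), with a median of 30.5. It was 83.2% in genes with narrow distal peaks only and 69.1% in genes with no distal peak. These groups also differed in median length, at 54.4, 70.3, 43.4 and 22.4 kb in that order, and the part of length in the shares was not tested.

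Members lay inside genes more often than narrow distal peaks, at 77.7% (75.8 to 79.6%) against 67.0%. Of the members without a listed start, 73.9% (71.6 to 76.0%) lay inside a gene. A 3′ end of a gene lay within 1 kb of 9.56% of members (8.29 to 11.0%) and 5.34% of narrow distal peaks. A wider peak reaches a given point more often, and this share was not matched for width. The median distance to the nearest gene 5′ end was 14.5 kb for members and 16.5 kb for narrow distal peaks. The farthest member lay in Dab1, a gene of the reelin pathway, 339.3 kb from any gene 5′ end, over a listed start and with a signal of 46.0. The next 4 all lay in Etl4, 229.9 to 313.7 kb away, with signals of 5.18 to 30.7.

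Members stood alone less often than narrow distal peaks. No other peak lay within 1 kb of 43.1% of the members (40.9 to 45.4%), beside 64.2% of narrow distal peaks. Among members over a listed start 61.5% (55.5 to 67.2%) stood alone and among the others 39.96% (37.6 to 42.4%). Members over a listed start had a median of 1 other peak within 10 kb, and members without one had 3. Wide peaks at gene 5′ ends stood alone in 64.9% and had a median of 1, so members over a start had neighbours about as often as these did.

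Chromosomes gave between 4.401% and 6.94% of their distal peaks to the members, lowest on chromosome 14 and highest on chromosome 15, leaving out Y. Chromosome 4 held 176 members, chromosome 11 held 166 and chromosome 2 held 165. The X, single in male cells, held 15 members, 1.41% of its peaks and 4.93% of its distal peaks. None of the 9 distal peaks on Y was wide.

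The replicates each gave a peak at all 1809 members, beside 87.3% of narrow distal peaks with one in both. This is description only, since the replicated list was itself derived from the replicates. Any overlap counted, and a wider peak meets that more easily. A peak covering at least 50% of the member was found in both replicates for 73.6%. The width of 2000 bp, at which the members were chosen, recurred in part. In replicate 1 a peak of 2000 bp or more lay at 973 members (53.8%) and in replicate 2 at 987 (54.6%). It was that wide in both at 754 (41.7%, 39.4 to 44.0%) and in neither at 603 (33.3%). Among wide peaks at gene 5′ ends both replicates were wide in 72.3%. Over a listed start the share was 63.4% (57.4 to 69.0%), and without one 37.9% (35.6 to 40.4%). At 630 members (34.8%) the call was split into several peaks in both replicates.

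Signals were close between the replicates. The median was 11.5 in replicate 1 and 10.9 in replicate 2, and Spearman's rho between the replicates was 0.942 over the 1809 members, which share the same line and peak calling. The log2 ratio of replicate 2 over replicate 1 had a median of -0.09 and an SD of 0.32. It exceeded a change of 2-fold at 17 members (0.940%), of which 1 lay over a listed start. The largest gap, a log2 ratio of -1.73, was at chr5:33526172-33530762 with 51.6 in replicate 1 and 15.6 in replicate 2. In replicate 1 a single peak with that signal also covered the neighbouring strong member between genes on chromosome 5.

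**Figure D5:**
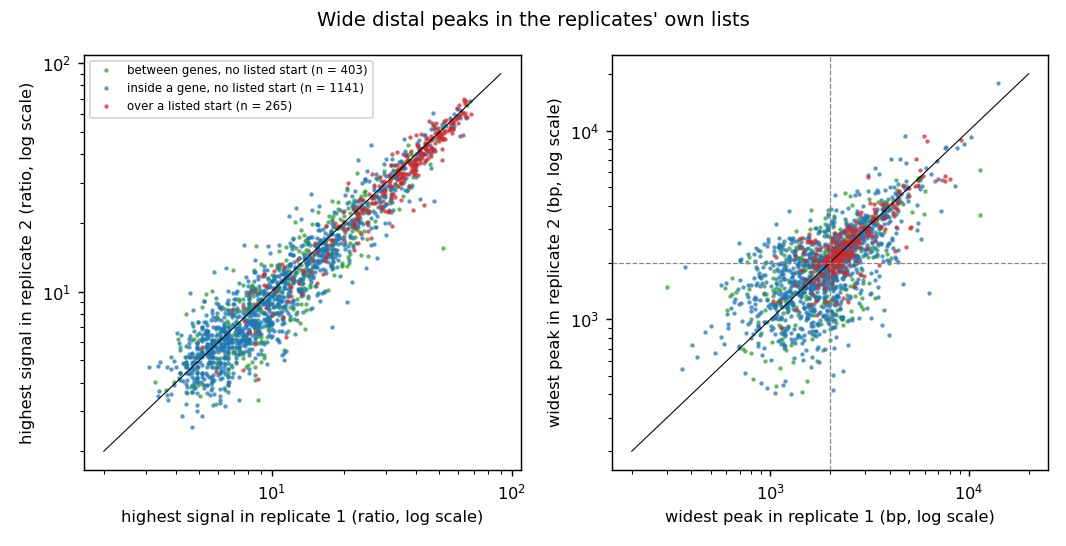
Each of the 1809 members by its highest signal (ratio, left, log axes) and its widest peak (bp, right, log axes) in the lists of replicate 1 (horizontal) and replicate 2 (vertical), coloured by class, with the line of equality. Signals lie close to the line, with a rho of 0.942. Widths scatter around the dashed lines at 2000 bp, and 754 members lie at or beyond both.

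At the width threshold, the nearest members inside were 2000 bp wide, in Sgsm1 with a signal of 27.5, near Bak1 with 19.8 and in Sort1 with 8.05. The nearest distal peaks outside were 1999 bp in Cabp1 with 11.4, 1998 bp in Gabbr2 with 23.4 and 1998 bp near Oscar with 12.9. Median signal climbed through the threshold without a step, from 6.04 at 1000 to 1500 bp to 8.25 at 1500 to 2000 bp and 10.2 at 2000 to 2500 bp. The share over a listed start climbed from 3.36% to 7.95% and 13.3%. Here too wider peaks reach a given point more often, and the part of that was not tested.

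The same rule was applied separately to the authors' list of the older build mm9, with GENCODE vM1 gene 5′ ends, and no coordinate was moved between builds. That list is of another kind, with region edges on a grid of 200 bp, and 12863 regions met the rule, with a median signal of 3.21. Of these, 8.83% (8.35 to 9.33%) lay over an annotated vM1 transcript start, beside 3.17% (2.97 to 3.38%) of narrow distal regions. These shares were not matched for width, with medians of 2800 bp in wide and 1000 bp in narrow distal regions. In a window of 1 kb at the middle of each region they were 4.48% and 2.88%. A CpG-rich window of 500 bp in the central 1 kb was found in 4.74% of the wide distal regions (4.38 to 5.12%), in 565 of 28821 narrow distal ones and in 49.5% of wide regions over a gene 5′ end. This order depended on the threshold. With a ratio over 0.6 and a GC content over 50%, the share was 14.1% in wide and 18.5% in narrow distal regions. Median GC content was 49.1% in wide and 51% in narrow distal regions, and the median CpG ratio was 0.299 and 0.348. Among the 1809 strongest, 28.3% lay over a start and 27.8% were CpG-rich. Of those without an annotated start 20.9% were CpG-rich, and of those with one 45.1%.

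The sequence below shows 1 such region on mm9, the second strongest without an annotated start, since no genome sequence of mm10 was used here. It is the stretch of 300 bases with the most CG in the central 1 kb, at chr15:85501148-85501447 (+), with every CG in capitals. The region spans chr15:85500201-85503000, has a signal of 61.2 and lies 34.0 kb from the nearest 5′ end, that of the microRNA gene Mirlet7c-2. The printed stretch held 54 CG at a GC content of 83.3%, the highest of both among the 6 strongest such regions. The stretch chosen in the same way held 51 CG in the strongest and in the third region. In the next 3 regions it held 20, 20 and 22, and these had no CpG-rich window.
Region on chromosome 15: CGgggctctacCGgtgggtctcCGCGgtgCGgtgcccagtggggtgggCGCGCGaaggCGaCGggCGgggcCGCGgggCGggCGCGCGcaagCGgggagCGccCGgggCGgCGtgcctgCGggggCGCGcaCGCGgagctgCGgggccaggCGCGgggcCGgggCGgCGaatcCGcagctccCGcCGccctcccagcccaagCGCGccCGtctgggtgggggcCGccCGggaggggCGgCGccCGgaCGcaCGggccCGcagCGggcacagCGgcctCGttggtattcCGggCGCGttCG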

How the data were processed

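The authors deposited peak lists and the reads were not used here, so the depth of each library is unknown and sets an unknown limit on how narrow or weak a peak could be called. On mm10 the lists were narrowPeak files for each replicate, for the pooled replicates and for the replicated peaks, per the deposited file descriptions. Each deposited peak has a signal (the ratio of ChIP to control), a summit, and its p-value and q-value as −log10, per the deposited file descriptions. On mm9 they were broadPeak regions with the authors' ratio, p-value and q-value. Aligner and peak caller are not given in the sources used for this work.

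Members were taken from the replicated list, in which all 62115 peaks on chromosomes had the same edges and signal as in the pooled list. Of 49943 RefSeq genes, strand came from the RefSeq promoter table for 27025, from the microRNA table for 1005 and from GENCODE vM1 names for 9326. The other 12587 had no strand, and both of their ends counted as 5′ ends. Listed starts and their sequences are those of RefSeq on GRCm38.p6, 32851 in all, with 250 bases before and 50 after each start. A replicate's value for a member is the highest signal, or the width of the widest, of its peaks that overlap the member.

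Shares carry Wilson 95% intervals. The members, the gene lists and the rules were chosen with earlier results of these data known. Named members were the 15 strongest, the 10 widest, the 5 farthest from a gene 5′ end, members in or nearest to genes of the pluripotency and epiblast lists, genes with 3 or more members, those nearest to the width threshold, and, for the other lists, up to 2 genes with the strongest members. Further genes of those lists were named after their values were seen, as were the 6 strongest between genes. Members of crowded genes are given as counts with examples. Overlap and interval code was tested on simulated data. Python 3.11.15, numpy 2.4.6, pandas 2.3.3 and scipy 1.17.1 were used. Alternatives covered the list, the q-value, the width, the distance, joining of close peaks, the gene types and the treatment of strand.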

Additional observations from a re-analysis of the deposited data

How the results depend on the processing

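The number of members, 1809 on the replicated list, followed the width, the peak calls, the distance and the gene types. A distance of 2 kb gave 2475 members, a distance of 10 kb gave 1215 and protein-coding genes only gave 2569. The lists of single replicates gave 1047 to 1084 members. Joining peaks under 1 kb apart gave 3229, a width of 1500 bp gave 3759 and of 3000 bp gave 562, and the mm9 list gave 12863. The share inside a gene was 78.9 to 80.4% on the single replicates, 74.0% after joining, 75.5% at 1500 bp, 80.2% at 3000 bp and 48.4% on mm9. The median signal was 15.03 to 16.88 on the single replicates, 8.48 after joining, 10.1 at 1500 bp and 16.5 at 3000 bp. A peak covering at least 50% of the member was found in both replicates for 73.6%, and any overlap for 100%. The mm9 share over a start was 9.43% within 500 bp, 4.48% in the central 1 kb, 9.01 to 9.82% on the single replicates and 28.3% among the strongest regions. The mm9 share of CpG-rich regions was 14.1% with a ratio over 0.6 and GC over 50%, below the 18.5% of narrow distal regions, and 27.8% among the strongest. In each case the cause was not tested. The restriction to the strongest mm9 regions, and all alternatives for the share of members over a listed start, were chosen after seeing the data, and that share ranged from 9.72% after joining to 22.0% with protein-coding genes only. Dropping genes without strand gave 2031 members and counting both ends of every gene gave 1426. No paired analysis was possible because there is only 1 group. With no read counts, a region without a peak is only one where no call passed the authors' threshold.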
